A study of Rattus norvegicus and Ovis aries with 113 samples.

Results

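Visual cortex of the sheep was compared with 4 other pieces of neocortex taken from the same animals. The 5 visual cortex libraries, 1 from each of the sheep numbered 687, 688, 690, 694 and 699, were chosen by their labels and are 5 of the 113 libraries of the series. They were set against 20 libraries of frontal cortex (FC), motor cortex (MC), prefrontal cortex (PC) and posterior parietal cortex (PPC), again 1 per region and sheep, so that each visual cortex (VC) library was read against the mean of the other 4 regions of its own animal. All 5 animals were post-pubertal males, were given no treatment, and gave tissue from the same hemisphere. No strain, age in days, allele or agent is named in the labels. Messenger RNA libraries were sequenced from whole tissue pieces as paired reads of 150 bases and counted per gene, so each library mixes neurons, glia and vessel cells. In such bulk RNA, fewer cells of a type and less RNA per cell cannot be told apart.

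Visual cortex receives the retinal signal by way of the lateral geniculate nucleus of the thalamus, whose axons end mainly in layer 4. In mammals with well-developed vision that layer is thick and rich in small neurons, marked by RORB and, with the upper layers, by CUX1 and CUX2. The position of cortical areas is set in development by graded transcription factors such as NR2F1 (COUP-TFI) and EMX2, high towards the back, and PAX6 and SP8, high towards the front. Eph receptors and their ephrin ligands then take part in laying out the map of visual space. Motor and frontal areas are known instead for a thin layer 4 and large layer 5 output neurons.

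Depth was similar across the libraries, with totals of 55560958 to 64435636 counts in visual cortex and 49178014 to 72403425 in the comparators. Levels are given below as CPM, a gene's counts scaled to a fixed library total, after TMM scaling, which adjusts for differences in library composition. All 5 visual cortex libraries carried the markers of neocortical excitatory neurons. TBR1, a transcription factor of deep-layer and corticothalamic neurons, was at 67.4, 44.0, 23.1, 25.9 and 13.4 CPM in sheep 687, 688, 690, 694 and 699. SLC17A7, the vesicular glutamate transporter of cortical excitatory neurons, was at 838.0, 508.3, 416.9, 360.5 and 325.8 CPM in the same order. Both were lowest in sheep 699 and highest in sheep 687. One comparator stood apart from the others in its markers. The library labelled motor cortex of sheep 687 had 3.12 CPM of TBR1, where the other 19 comparators had 18.4 to 78.0. Its SLC17A7, at 515.1 CPM, lay within the range of the others. It also had 739.9 CPM of TTR, the transthyretin gene of choroid plexus (58.5 at most in the others), and 24.3 CPM of FOXJ1, a gene of ciliated ependymal cells (0.924 at most in the others). Differences of genes for which it was the highest or lowest comparator are therefore followed by the value without it, where that moved by over 0.05 on the log2 scale. The library labelled motor cortex of sheep 699 held the most myelin RNA, with 21410 CPM of MBP, the gene for myelin basic protein.

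**Figure D1:**
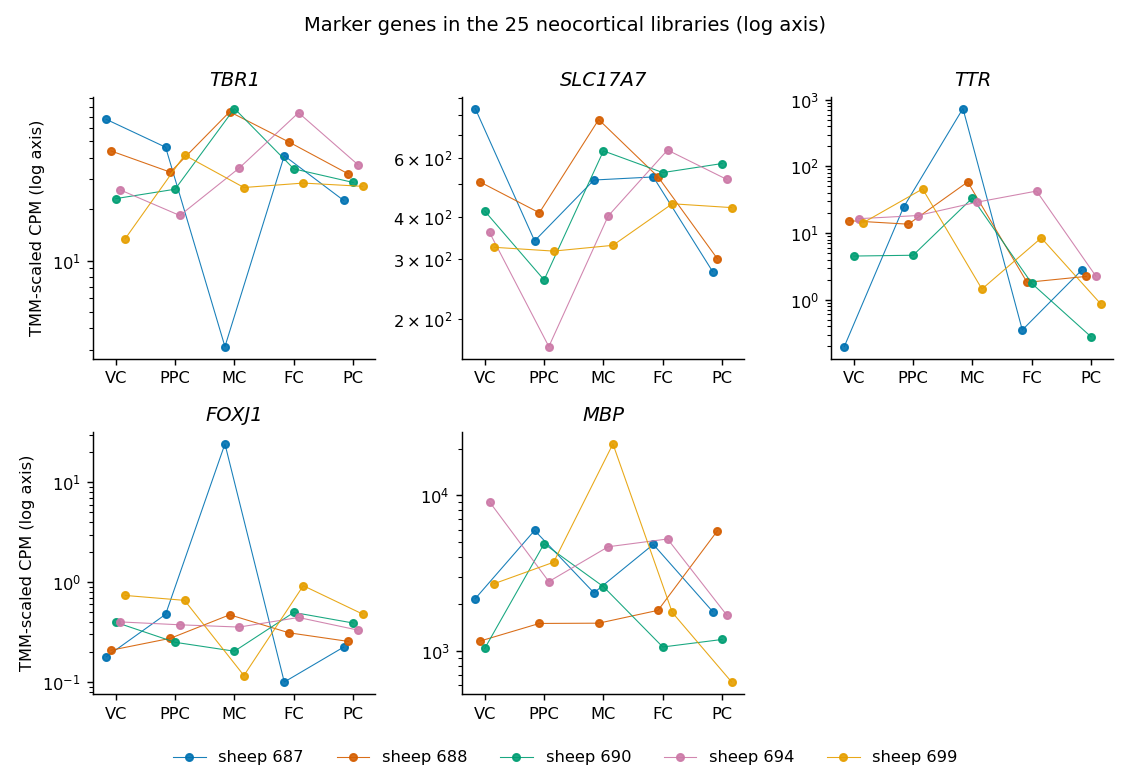
TMM-scaled CPM on a log axis of 5 marker genes in the 25 libraries, by region (VC, visual; PPC, posterior parietal; MC, motor; FC, frontal; PC, prefrontal cortex); points are single libraries and lines join those of the same sheep. TBR1 drops to 3.12 in the library labelled motor cortex of sheep 687, where TTR reaches 739.9 and FOXJ1 24.3, and MBP peaks at 21410 in that of sheep 699.

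No gene separated visual cortex from the rest of the neocortex. Of 20045 genes tested with edgeR's quasi-likelihood test with the animal as a block, 0 (0%) passed a Benjamini-Hochberg adjusted p of 0.05, and the smallest adjusted p was 0.709. At an unadjusted p below 0.05 there were 480 genes (2.39%), of which 295 (1.47% of all tested) had the higher mean in visual cortex and 185 (0.923%) the lower. If p were spread evenly from 0 to 1, about 1002 genes would fall below 0.05, so 480 is fewer than that. DESeq2 called 33 genes, 26 of which averaged under 5 counts per library; EPHA6, CHRNA7, SLC26A5 and USH1G were among the others. Limma voom with quality weights called 0, with 1123 at an unadjusted p below 0.05. With the library labelled motor cortex of sheep 687 left out, edgeR called 1 gene and 683 stood below the unadjusted threshold. No gene had visual cortex libraries that all lay above, or all below, the 20 comparator libraries.

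For most genes at 1 CPM or more, the data left little room for differences above 1 on the log2 scale, though smaller ones remained possible. Among the 15678 genes at 1 CPM or more in the comparators, the median standard error of the log2 difference was 0.14. For 15109 of them (96.4%) the 95% interval lay within -1 to 1 on the log2 scale. Visual cortex was above the mean of the other 4 regions in 5 of 5 sheep for 463 of these genes and below it in 5 of 5 for 805. Only 5 genes had their highest level in visual cortex in every sheep, namely EPHA6, CHRNA7, KLHL14, ZBTB2 and the unnamed LOC114110434, and no gene had its lowest there in every sheep. The same counts of genes highest and lowest in every sheep were 6 and 29 for motor, 1 and 2 for frontal, 1 and 1 for prefrontal and 50 and 40 for posterior parietal cortex. With 5 regions and 5 sheep, some of the 15678 genes would meet such rules by chance, and no count here was tested against that.

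**Figure D2:**
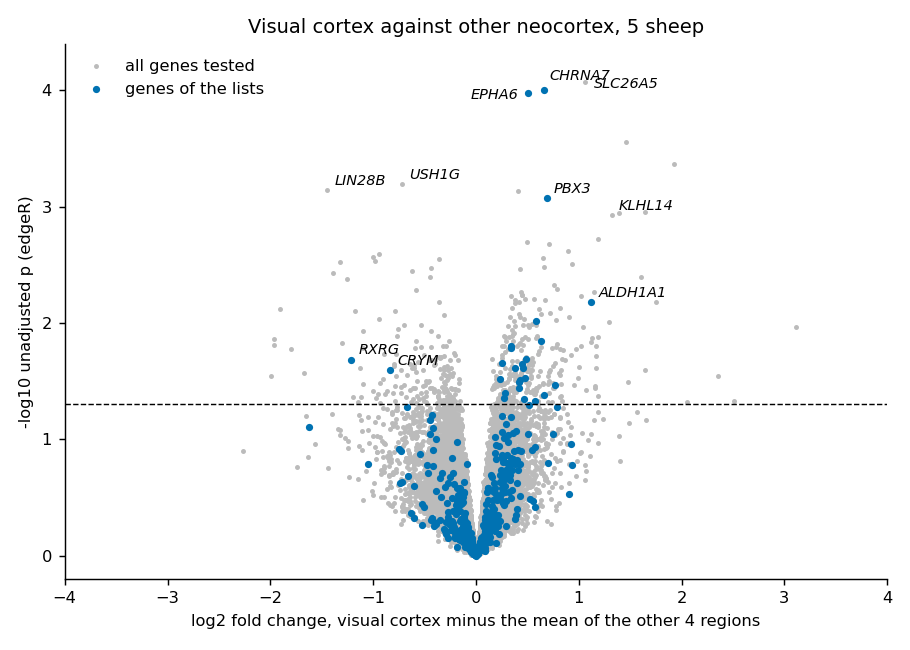
Log2 difference (visual cortex minus the mean of the other 4 regions of the same sheep) against the unadjusted p of edgeR on a -log10 scale, for the 20045 genes tested, with the genes of the marker and pathway lists in blue and the dashed line at a p of 0.05. SLC26A5, CHRNA7 and EPHA6 have the smallest p, and none of the 20045 passes after adjustment.

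The genes described next have the smallest p among those at 1 CPM or more; they were chosen after their values were seen, since the rule for named genes picked 0. EPHA6, a receptor for the ephrin-A ligands that guide axons into topographic maps, was at 25.8, 42.2, 40.3, 29.4 and 25.7 CPM in the visual cortex of sheep 687, 688, 690, 694 and 699. Its comparators ran from 16.0 to 32.0 with a median of 23.7 CPM. Each animal's visual cortex was its own highest region, while 6 comparator libraries of other animals lay above the lowest visual cortex library. The log2 difference was 0.50 ± 0.10 (SE, n = 5 sheep), with an adjusted p of 0.709 in edgeR and 0.0107 in DESeq2. Standard errors here and below come from the fit of all 25 libraries, not from the spread of the 5 within-sheep differences. The difference was 0.72 against frontal cortex, 0.47 against motor, 0.45 against prefrontal and 0.37 against posterior parietal cortex. Leaving out the library labelled motor cortex of sheep 687 gave 0.48.

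CHRNA7 encodes the alpha7 nicotinic acetylcholine receptor, a calcium-permeable channel found on cortical neurons. It stood at 17.3, 20.4, 23.4, 14.4 and 12.7 CPM in visual cortex. The comparators lay between 4.89 and 14.1, with a median of 12.1 CPM, and the lowest of them was the library labelled motor cortex of sheep 687. Sheep 687, 688, 690 and 694 had visual cortex levels above every comparator library, and sheep 699 did not. The log2 difference was 0.66 ± 0.14 (SE, n = 5 sheep; adjusted p of 0.709 in edgeR and 0.0107 in DESeq2), and 0.62 without that motor cortex library. It was 0.99 against motor cortex, or 0.84 without that library, and 0.53 to 0.59 against each of the other regions.

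SLC26A5, which encodes prestin, the motor protein of cochlear outer hair cells, had the smallest p of all. Its visual cortex levels were low, at 1.80, 2.12, 2.33, 1.08 and 3.85 CPM, against 0.598 to 1.60 CPM in the comparators. The animals differed: sheep 699 was the highest, and sheep 694 lay inside the range of the comparators. The log2 difference was 1.06 ± 0.22 (SE, n = 5 sheep; adjusted p of 0.709 in edgeR and 0.01 in DESeq2). USH1G, a scaffold protein of hair cell bundles mutated in a form of Usher syndrome, had a difference of the opposite sign, with 2.24, 2.02, 3.92, 3.09 and 4.37 CPM in visual cortex. The comparators of USH1G ran from 3.79 to 7.93 CPM, and the highest was the library labelled motor cortex of sheep 687. Its log2 difference was -0.72 ± 0.18 (SE, n = 5 sheep; adjusted p of 0.979 in edgeR and 0.0428 in DESeq2), and -0.67 without that library. Visual cortex was below its own animal's mean in 5 of 5 sheep, and 6 comparator libraries lay below its highest level.

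KLHL14, a BTB-kelch protein, stood at 26.2, 23.7, 15.4, 12.8 and 11.7 CPM in visual cortex and at 0.673 to 14.9 in the comparators. Sheep 687 and 688 stood well above all comparators, and 5 comparator libraries lay above the lowest visual cortex level. The log2 difference was 1.32 ± 0.35, and 1.18 without the library labelled motor cortex of sheep 687, which holds the 0.673. PBX3, a homeodomain transcription factor, was at 9.03, 6.58, 7.06, 5.28 and 7.06 CPM against 2.47 to 6.62 CPM. Visual cortex was higher than its own animal's mean in 5 of 5 sheep, with a log2 difference of 0.69 ± 0.18 that ranged from 0.53 against posterior parietal to 0.78 against prefrontal cortex. NAV2, a neuron navigator protein that acts in neurite growth, was at 34.8, 30.4, 28.5, 24.7 and 21.6 CPM against 13.0 to 27.2, again above its own animal's mean in 5 of 5 sheep.

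Among the synaptic genes with a small p, RIMS1, an active zone scaffold of presynaptic terminals, had 252.7 to 445.1 CPM in visual cortex and 104.2 to 432.7 in the comparators. It was close to prefrontal cortex, with a log2 difference of 0.12 ± 0.18, and farther from motor cortex, at 0.91 ± 0.18, or 0.82 without the library labelled motor cortex of sheep 687. HOMER2, a postsynaptic scaffold, had 23.5 to 34.7 CPM against 15.7 to 31.5, and was higher in 4 of 5 sheep. FREM1, an extracellular matrix protein of basement membranes, was at 14.7, 23.4, 14.9, 13.2 and 8.35 CPM and differed by 1.17 from motor (1.12 without that library) and 1.07 from posterior parietal cortex, but by 0.09 from prefrontal and 0.29 from frontal cortex. PRR16 and CTSZ, the latter a lysosomal cysteine protease, had lower means in visual cortex, by log2 differences of -0.63 ± 0.19 and -0.36 ± 0.10. Without the library labelled motor cortex of sheep 687 these were -0.70 and -0.39, and that of RIMS1 over all 4 regions went from 0.49 to 0.47. Both PRR16 and CTSZ were lower in 5 of 5 sheep. The ranges of visual cortex and comparators overlapped for all of these.

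**Figure D3:**
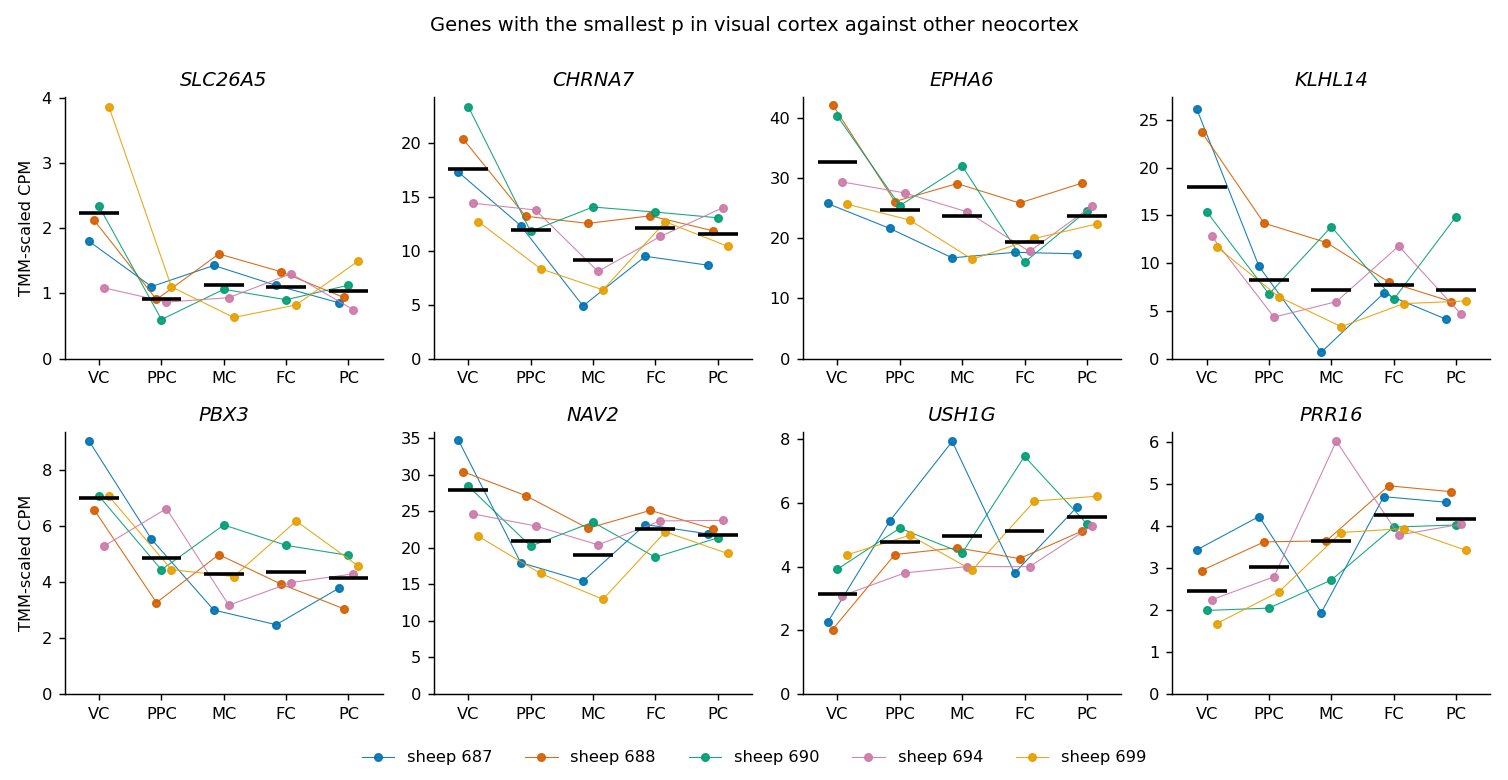
TMM-scaled CPM of 8 genes with small p in each of the 25 libraries, by region (VC, visual; PPC, posterior parietal; MC, motor; FC, frontal; PC, prefrontal cortex); points are libraries, thin lines join the libraries of 1 sheep and black bars are means of 5. EPHA6, CHRNA7 and KLHL14 are highest in visual cortex in every sheep, SLC26A5 reaches 3.85 CPM in sheep 699, and USH1G and PRR16 lie low.

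The only gene that edgeR called in any setting was LOC121819680, for which the table gives no gene name. Its visual cortex level was 0.754, 0.498, 1.32, 1.02 and 1.42 CPM, and the comparators ran from 0.0816 to 2.27 CPM. Its highest comparator was the library labelled motor cortex of sheep 687. With that library the log2 difference was 1.65 ± 0.43 (edgeR adjusted p = 0.979), and without it 1.90 (edgeR adjusted p = 0.023). Visual cortex was higher in 5 of 5 sheep. The gene was singled out because of this call.

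Lists of marker and pathway genes were read next, 453 symbols in 39 lists, of which 431 genes were tested. None of the 431 passed (0%). At an unadjusted p below 0.05 there were 26 (6.03%), set beside 2.39% of all genes tested. Evenly spread p would put a share of 0.05 of any list there. Of these, 24 had the higher mean in visual cortex (1.47% of all genes did) and 2 the lower (0.923%), CRYM and RXRG. The lists were chosen with earlier results of these data known, so the higher share among their genes cannot be read as an enrichment. The count of 26 changed with the animals used, to 47 without sheep 687, 14 without sheep 688 and 12 without sheep 690. It was 30 without sheep 694, 22 without sheep 699 and 12 when motor cortex was left out of the comparison. Over all genes tested, the count of 480 moved too. It was 706, 286, 285, 718 and 753 without sheep 687, 688, 690, 694 and 699, and 354 without motor cortex. Without the library labelled motor cortex of sheep 687 there were 33 such list genes, of which 26 had the higher mean in visual cortex, and 683 over all genes.

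**Figure D4:**
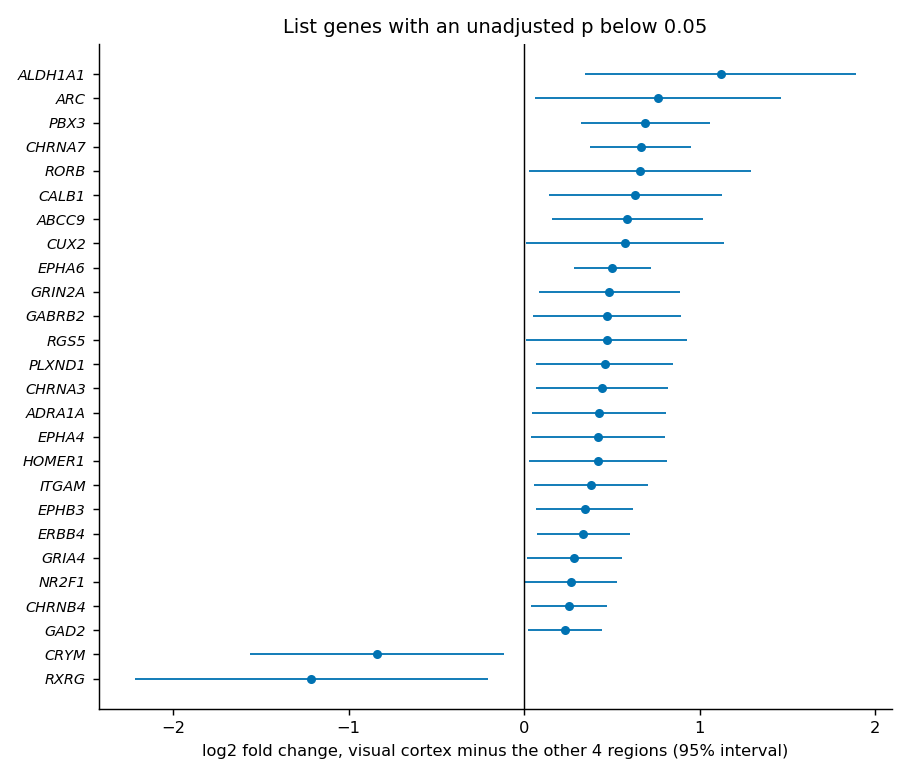
Log2 difference (visual cortex minus the mean of the other 4 regions of the same sheep) with its 95% interval for the 26 list genes with an unadjusted p below 0.05. ALDH1A1 is the largest above 0, at 1.12, and CRYM and RXRG lie below 0, at -0.84 and -1.21; the genes shown were picked by that p, so all intervals exclude 0 by construction.

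Of the 9 genes listed for layer 4, 8 were tested and 0 were called; 5 had the higher mean in visual cortex, and the median log2 difference was 0.18 (-0.0087 over all genes tested). RORB, the nuclear receptor that marks layer 4 neurons, was at 4.72, 7.79, 6.50, 3.59 and 3.44 CPM in visual cortex. The comparators of RORB ran from 1.56 to 10.9, with a median of 3.09 CPM, and the highest was prefrontal cortex of sheep 699. The log2 difference of 0.66 ± 0.30 (unadjusted p = 0.0415, edgeR adjusted p = 0.979) was made of 1.03 against frontal, 0.91 against motor, 0.63 against posterior parietal and 0.07 against prefrontal cortex. Without the library labelled motor cortex of sheep 687 it was 0.64, with an unadjusted p of 0.0536. CUX2, a homeobox gene of layers 2 to 4, was at 116.4, 125.5, 115.9, 85.8 and 78.7 CPM, and its comparators ran from 9.77, in the library labelled motor cortex of sheep 687, to 117.5. Visual cortex exceeded its own animal's mean in 5 of 5 sheep, by 0.57 ± 0.27 on the log2 scale, and by 0.48 without that library. As with RORB, the difference from prefrontal cortex was small, at 0.04. SCNN1A, another layer 4 gene, ranged from 0.687 to 4.05 CPM and was higher in 3 of 5 sheep.

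In the list of layers 2 and 3, 5 of 9 genes tested had the higher mean in visual cortex, 0 were called, and the median was 0.13. CALB1, the calcium-binding protein calbindin, was scarce, at 1.20, 0.578, 0.976, 0.638 and 1.06 CPM against 0.21 to 1.10, with a log2 difference of 0.63 ± 0.24. In the list of layer 5 it was 4 of 11 with a median of -0.12, and in that of layer 6, 4 of 11 with a median of -0.08; 0 were called in either. CRYM, a thyroid hormone-binding protein of layer 5 neurons, was at 60.4, 29.0, 26.0, 26.8 and 26.4 CPM in visual cortex. Its comparators ran from 9.13 to 130.4 with a median of 59.9, and the median was 88.8 in frontal cortex but 24.3 in posterior parietal cortex. Visual cortex was below its own animal's mean in 5 of 5 sheep (log2 difference -0.84 ± 0.35, edgeR adjusted p = 0.979), and the ranges overlapped widely. SYT6, a synaptotagmin of layer 6 neurons, had 2.64 to 7.59 CPM in visual cortex and 8.67 to 17.4 in motor cortex, with a log2 difference from all 4 regions of -0.67 ± 0.32. It differed by -1.70 from motor and -0.70 from frontal cortex, but by -0.05 from prefrontal and -0.22 from posterior parietal cortex. FEZF2, the transcription factor of subcortical projection neurons, ranged from 3.29 to 25.3 CPM within visual cortex alone, with a difference of -0.22 ± 0.42.

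**Figure D5:**
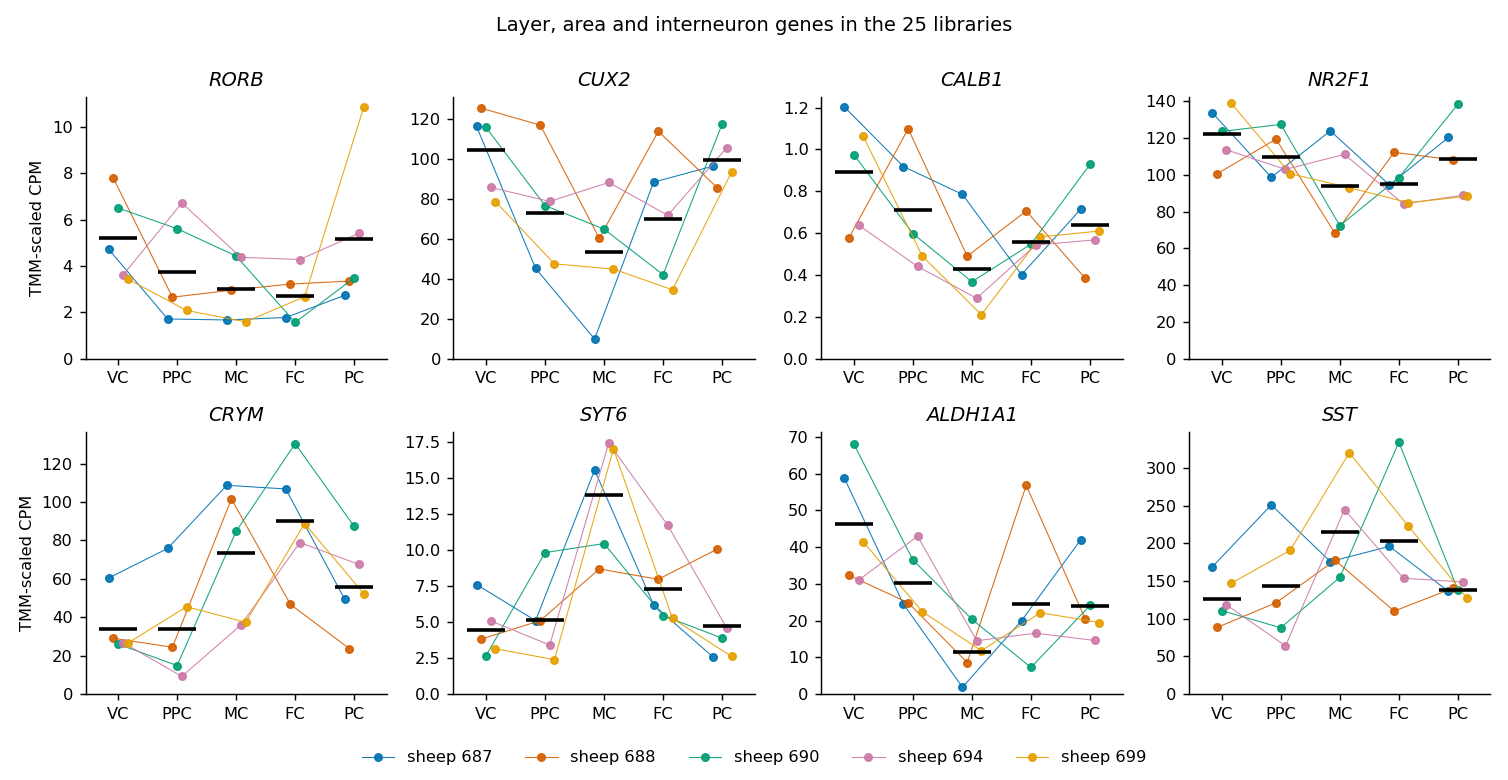
TMM-scaled CPM of layer, area and interneuron genes in each of the 25 libraries, by region (VC, visual; PPC, posterior parietal; MC, motor; FC, frontal; PC, prefrontal cortex); points are libraries, thin lines join the libraries of 1 sheep and black bars are means of 5. RORB and CUX2 are near their prefrontal level in visual cortex, CRYM is near its posterior parietal level except in sheep 687, at 60.4, and SYT6 is highest in motor cortex.

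The transcription factors that pattern cortical areas showed no common direction: of 29 tested, 14 had the higher mean in visual cortex, 0 were called and the median was -0.02 (15 and 0.01 without the library labelled motor cortex of sheep 687). NR2F1, high in the back of the developing cortex, was at 133.9, 100.6, 123.7, 113.7 and 139.1 CPM in visual cortex. The comparators of NR2F1 ran from 68.1 to 138.5 with a median of 99.7 CPM, so that only sheep 699 exceeded them all. Its log2 difference was 0.27 ± 0.13, with the higher level in visual cortex in 5 of 5 sheep (unadjusted p = 0.0443, edgeR adjusted p = 0.979). NR2F2, its close relative, was at 15.0 to 32.5 CPM, also higher in 5 of 5 sheep, with a difference of 0.70 ± 0.48. Its highest comparator, at 74.7 CPM, was the library labelled motor cortex of sheep 687, and without that library the difference was 1.05 ± 0.28 (edgeR adjusted p = 0.9). EMX2, graded in the same sense as NR2F1, had 8.75 to 21.8 CPM in visual cortex and 8.91 to 22.3 elsewhere. PAX6, graded in the other sense, had 6.42 to 16.8 CPM against 8.67 to 18.5, with a difference of -0.23 ± 0.17. LMO4, a LIM-only factor of frontal areas in rodents, had 130.5 to 254.6 CPM against 110.4 to 329.5.

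In primates a few genes are known to mark visual or association areas, and these were not called in the sheep. Of the 4 visual genes, 2 had the higher mean and 2 the lower, with a median of 0.03; without the library labelled motor cortex of sheep 687 it was 1 and 3, with -0.03. HTR1B, a serotonin receptor strongly expressed in primate primary visual cortex, was at 2.09 to 4.80 CPM against 0.865 to 7.87, with a difference of 0.11 ± 0.30 and of 0.03 without the library labelled motor cortex of sheep 687. HTR2A, another serotonin receptor of that list, was at 5.80 to 12.8 CPM against 1.79 to 23.5, with a difference of 0.09 ± 0.53. The secreted proteins FSTL1 and SPOCK1 differed by -0.12 ± 0.22 and -0.04 ± 0.10. Of the association genes RBP4 was at 62.5 to 85.2 CPM against 63.7 to 105.9, and SLIT1 at 34.8 to 121.5 against 18.4 to 125.7. The 95% interval of SPOCK1 was -0.24 to 0.17, while that of HTR2A was -1.01 to 1.19 and so leaves room for large differences of either sign.

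For GABAergic interneurons, 15 of 27 genes tested had the higher mean in visual cortex, 0 were called and the median was 0.01 (13 and -0.01 without the library labelled motor cortex of sheep 687). GAD2, a GABA-synthesising enzyme, was at 122.1, 176.5, 207.4, 170.0 and 166.5 CPM against 98.3 to 203.1, with a log2 difference of 0.23 ± 0.10. ERBB4, the neuregulin receptor of many interneurons, was higher in 5 of 5 sheep, at 55.9 to 106.7 CPM against 40.8 to 95.6 (0.34 ± 0.13). Sheep 687 was the lowest of the 5 for both. The related peptide genes SST and CORT had means on the other side. SST, somatostatin, was at 168.6, 88.2, 110.5, 118.1 and 146.9 CPM in visual cortex, below its own animal's mean in 5 of 5 sheep. Its comparators ran from 63.8 to 334.0 CPM, and the difference was -0.45 ± 0.23 (unadjusted p = 0.0677). CORT, cortistatin, was also lower in 5 of 5, at 5.46 to 7.81 CPM against 3.43 to 20.5. SST differed by -0.69 from frontal and -0.79 from motor cortex, but by -0.18 from prefrontal and -0.13 from posterior parietal cortex. For CORT these were -0.78, -0.74, -0.17 and -0.02. Without the library labelled motor cortex of sheep 687 the differences of SST and CORT from all 4 regions were -0.49 and -0.46. PVALB, parvalbumin of fast-spiking cells, was at 22.3, 37.4, 14.2, 26.8 and 14.0 CPM against 3.85 to 101.6, with a difference of -0.66 ± 0.51 and of -0.76 without that library. VIP, another peptide gene, had the higher mean, at 21.4 to 81.7 CPM against 12.1 to 58.9 (0.30 ± 0.20). Among all neuropeptides and granins, 8 of 21 had the higher mean, with a median of -0.09.

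Genes of fast-spiking physiology and of the extracellular matrix around such cells spanned much the same range within visual cortex as in the comparators. Of the fast-spiking and axonal channel genes, 9 of 15 had the higher mean, and of the perineuronal net genes 5 of 12, with 0 called and medians of 0.02 and -0.01. These were 7 of 15 and 6 of 12, with medians of -0.03 and -0.01, without the library labelled motor cortex of sheep 687. SCN8A, a sodium channel of the axon initial segment, was at 48.3 to 179.7 CPM in visual cortex alone, against 47.0 to 161.4 in the 20 comparators. ACAN, the aggrecan core protein of perineuronal nets, was at 1.48 to 3.76 CPM against 1.27 to 4.22. NEFH, the heavy neurofilament chain of large axons, was at 85.4, 135.2, 42.6, 60.2 and 32.5 CPM, and 1 of 4 neurofilament genes had the higher mean (0 of 4 without that library). Sheep 688 was the highest and sheep 699 the lowest for NEFH.

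Most receptors for transmitters had the higher mean in visual cortex, with 0 called. Of the ionotropic glutamate receptors 11 of 15 had the higher mean (median 0.08), of the metabotropic ones 5 of 7 (0.09), of the GABA-A receptors 10 of 14 (0.13), and of the monoamine and acetylcholine receptors 26 of 37 (0.13). Without the library labelled motor cortex of sheep 687 the counts were 10, 3, 10 and 24, so that the metabotropic receptors no longer had the higher mean more often. GRIN2A, the NMDA receptor subunit that rises as visual cortex matures, was at 217.6, 240.4, 124.0, 114.8 and 68.3 CPM against 54.3 to 174.1. Only sheep 687 and 688 exceeded the comparators, and only 3 of 5 sheep were above their own mean. GABRB2, a GABA-A subunit, was at 283.4, 384.1, 255.6, 181.3 and 107.4 CPM against 86.7 to 284.0, so that only sheep 688 exceeded the comparators. Of the nicotinic receptors, CHRNA3 was at 4.56 to 17.8 CPM and higher in 5 of 5 sheep (0.44 ± 0.18), and CHRNB4 at 4.48 to 5.71 and higher in 4 of 5 (0.26 ± 0.10). By region CHRNA3 differed by 0.45 from frontal, 1.11 from motor, 0.18 from prefrontal and 0.03 from posterior parietal cortex. ADRA1A, an adrenergic receptor, was at 13.2 to 25.2 CPM against 8.11 to 25.2. CHRM2, the muscarinic receptor often used to delineate primary sensory areas, was at 2.57 to 12.4 CPM against 2.89 to 12.9, with a difference of 0.11 ± 0.25.

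Activity-dependent genes, whose level follows recent firing, were higher in mean for 16 of 24, with 0 called and a median of 0.08. ARC, which acts in synaptic scaling, was at 47.3, 31.2, 36.8, 25.3 and 14.8 CPM against 4.81 to 42.4, where the lowest was the library labelled motor cortex of sheep 687. Its difference was 0.76 ± 0.34, and 0.61 (unadjusted p = 0.0625) without that library. EGR1 ranged from 16.7 to 103.8 CPM in visual cortex and FOS from 15.7 to 47.5, both highest in sheep 687. HOMER1, a postsynaptic scaffold, was at 92.5 to 273.6 CPM, and 3 of 5 sheep were above their own mean (0.42 ± 0.19, and 0.34 without the same library). Of the plasticity factors studied in visual cortex, 9 of 14 had the higher mean (median 0.07), and BDNF, a neurotrophin of the critical period, was at 17.5, 12.3, 14.3 and 6.84 CPM in sheep 688, 690, 694 and 699 and 28.4 in sheep 687.

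Molecules of axon guidance and adhesion followed EPHA6 only in part. Of the Eph receptors and ephrins, 14 of 19 had the higher mean, 0 were called and the median was 0.11. EPHA4, a receptor that binds both ephrin classes, was at 307.9, 389.1, 199.6, 160.8 and 91.5 CPM against 72.5 to 263.6, and only 3 of 5 sheep were above their own mean. It differed by 1.10 ± 0.24 from posterior parietal cortex but by 0.11 to 0.30 from each of the others. EPHB3 was at 12.5 to 18.7 CPM and higher in 4 of 5 sheep (0.34 ± 0.13, and 0.29 without the library labelled motor cortex of sheep 687). EPHA7, another ephrin-A receptor, was at 10.7 to 29.5 CPM against 8.58 to 35.5, with a difference of 0.11 ± 0.23. Among semaphorins, plexins, slits, robos and netrins it was 22 of 34 with a median of 0.08. PLXND1, a semaphorin receptor, was higher in 5 of 5 sheep, at 51.0 to 72.9 CPM against 9.48 to 73.2 (0.46 ± 0.19, and 0.39 without that library, which was the lowest). Cadherins had 10 of 15 with the higher mean and a median of 0.14.

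Retinoic acid, a vitamin A derivative that patterns frontal cortex in development, is made by aldehyde dehydrogenases and read by RAR and RXR receptors. Of 15 genes tested in this pathway, 10 had the higher mean, 0 were called and the median was 0.04. ALDH1A1, one of those enzymes, was at 58.8, 32.3, 68.1, 31.0 and 41.5 CPM in visual cortex. The comparators ran from 1.81, in the library labelled motor cortex of sheep 687, to 56.8 with a median of 20.4 CPM, and 4 of them lay above the lowest visual cortex level. The log2 difference was 1.12 ± 0.37, higher in 5 of 5 sheep, and 1.02 without that library (edgeR adjusted p = 0.979 and 0.9). RXRG, a retinoid X receptor, was at 1.40, 0.530, 1.05, 1.05 and 1.44 CPM against 0.646 to 17.1, with the highest in the same motor cortex library. It was lower in 5 of 5 sheep, with a log2 difference of -1.21 ± 0.48, and of -1.07 without that library. By region RXRG differed by -1.36 from frontal, -2.10 from motor, -1.14 from prefrontal and -0.26 from posterior parietal cortex. The difference from motor cortex includes the library labelled motor cortex of sheep 687 and is not given without it.

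Markers of other cells were read for the same libraries, since tissue pieces can differ in white matter, vessels or neighbouring structures. All 10 myelin genes had the lower mean in visual cortex (median -0.21), with 0 called and none below an unadjusted p of 0.05. The mean log2 CPM of that list was 6.43 to 8.85 in visual cortex and 5.61 to 9.72 in the comparators. The difference varied by region. That of MAG was -1.32 from motor, -0.28 from frontal and -0.04 from posterior parietal cortex, but 0.70 from prefrontal cortex. All 8 endothelial genes had the higher mean (median 0.23), and 8 of 9 microglial genes did (median 0.09), the list levels being 4.11 to 5.82 against 3.74 to 7.36 and 3.52 to 5.19 against 3.57 to 5.32. The endothelial gene FLT1 differed by 0.67 from frontal, 0.96 from motor and 0.09 from prefrontal cortex, but by -0.46 from posterior parietal cortex. For the microglial gene CSF1R these were 0.42, 0.72, 0.24 and -0.37. ITGAM, a complement receptor of microglia, was at 5.98 to 24.3 CPM and differed by 0.38 ± 0.16, and the pericyte genes ABCC9 and RGS5 by 0.59 ± 0.21 and 0.47 ± 0.22 (0.56 and 0.41 without the library labelled motor cortex of sheep 687). Choroid plexus and ependyma had 1 of 8 genes with the higher mean (median -0.42). That list stood at 3.55 in the library labelled motor cortex of sheep 687 and at most at 0.776 in the other comparators, and without that library it was 3 of 8 with a median of -0.06. The part of these cell types in the differences given above was not tested beyond 1 fit with the myelin level as a covariate, which called 0 genes.

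Against each region singly, visual cortex again had 0 genes (0%) past an adjusted p of 0.05 in edgeR, on libraries that all 4 comparisons share. The genes below an unadjusted p of 0.05 were 755 (3.77%) against frontal, 2047 (10.2%) against motor, 426 (2.13%) against prefrontal and 1720 (8.58%) against posterior parietal cortex. Evenly spread p would give about 1002 in each, so frontal and prefrontal cortex lay below that number and the others above it. DESeq2 called 32, 140, 23 and 38 genes in that order, and voom 1, 2, 0 and 0. Most of the DESeq2 calls against frontal, prefrontal and posterior parietal cortex averaged below 0.05 CPM, such as SUN5 (0.0104 CPM, with counts in 6 libraries). The levels of those against motor cortex are not given here. The smallest adjusted p in edgeR, 0.106, belonged to LIN28B against frontal cortex. LIN28B is an RNA-binding protein that blocks maturation of let-7 microRNAs. Its level was 0.233, 0.161, 0.144, 0.0594 and 0.198 CPM in visual cortex and 0.591 to 1.28 CPM in frontal cortex. Levels as low as those in visual cortex rest on few reads. The log2 difference was -2.57 ± 0.42 from frontal and -2.11 ± 0.43 from prefrontal cortex, but 0.08 ± 0.45 from posterior parietal cortex, where the level was 0.0652 to 0.312. LIN28B was named after its values were seen.

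The order of these counts depended on the setting. Voom gave 3603 against frontal, 3286 against motor, 580 against prefrontal and 1201 against posterior parietal cortex, and edgeR without sheep 687 gave 1430, 3071, 415 and 836. Against motor cortex the smallest p belonged to PLVAP, a protein of fenestrated endothelium, at a mean of 8.57 CPM in visual and 4.85 in motor cortex, with a log2 difference of 0.80 ± 0.14. CHRNA3 differed there by 1.11 ± 0.24 and ITGAM by 0.96 ± 0.20. These 3 differences were 0.84, 0.96 and 1.02 without the library labelled motor cortex of sheep 687. Against posterior parietal cortex the leading genes were COCH, an extracellular protein best known from the inner ear, at means of 18.4 and 7.48 CPM (1.28 ± 0.28), and EPHA4. The edgeR adjusted p was 0.27 for each of the motor cortex genes and 0.576 for the posterior parietal ones. Against motor cortex edgeR called 0 genes with 2674 below an unadjusted p of 0.05 when the library labelled motor cortex of sheep 687 was left out, 0 with 1127 when that of sheep 699 was left out too, and 0 with 1155 without sheep 699.

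The visual cortex libraries also differed among themselves. Correlations of log2 CPM between pairs of them ran from 0.956 to 0.977. MBP was at 2169, 1157, 1038, 9089 and 2708 CPM, so that sheep 694 alone was high in myelin RNA. Pan-neuronal genes stood at a mean log2 CPM of 9.56, 9.26, 8.76, 8.66 and 8.51, and microglial genes at 3.52, 4.07, 5.07, 4.96 and 5.19, in sheep 687, 688, 690, 694 and 699. Sheep 687 was thus the highest in the neuronal list and the lowest in the microglial one. TBR1, GRIN2A, GABRB2, HOMER1, EPHA4 and KLHL14 were all at their highest in sheep 687 or 688. Whether the neuronal list level accounts for these differences between animals was not tested. Over the 15678 genes at 1 CPM or more, the animal took a median 22.0% of the sum of squares of log2 CPM, the region 17.4% and the remainder 56.2%. Both animal and region would take some share by chance alone, and no correction for this was made.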

How the data were processed

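RNA of sheep brain pieces was made into libraries with a stranded mRNA kit after TRIzol extraction and DNase I, per the labels' protocols. The authors deposited unnormalized counts per gene, made with Trimmomatic 0.39, STAR 2.7.5a and Rsubread 2.20.0 on the ARS-UI_Ramb_v3.0 sheep assembly, per the series' design text. The strand setting of the counting is not given in the sources used here, so overlapping antisense genes may share reads, and reads of near-identical gene copies may be split. Sheep sequences and gene positions were not used here.

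The 25 libraries of 5 neocortical regions were fitted with edgeR 4.0.16 in R 4.3.3 (TMM factors, filterByExpr by region, quasi-likelihood test, region plus animal), and 20045 of 31304 genes passed the filter. A gene was called at a Benjamini-Hochberg adjusted p below 0.05. Standard errors were computed from the log2 difference and the F statistic, and no value exists for 2 genes. They rest on the spread over all 25 libraries and do not measure how far the 5 sheep differ in the visual cortex difference. The 30 other sheep libraries were left out. The same fit was tested on simulated counts for this contrast (19804 genes, dispersion 0.02). It called 50 of 50 genes at each true log2 change of -2, -1, 1 and 2 and 9 of 19604 unchanged ones. That dispersion was set by hand, the same for every gene, and no difference between animals was simulated. These calls therefore do not show which differences could be detected in the real data. Pairing follows the design, since same-numbered libraries come from the same animal; deviations from region means correlated by 0.263 on average within a sheep and by -0.0656 between sheep, and 41 of 50 same-sheep pairs exceeded 0.1. Alternatives were RLE and upper quartile factors, DESeq2 1.42.0, limma 3.58.1 voom with quality weights, no filter, no animal block, leaving out each sheep or each comparator region, and a fold threshold. Leaving out motor cortex libraries and a myelin covariate were chosen after seeing the data.

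Genes were to be named when called, at 5 CPM or more, with a gene name and the same direction in 5 of 5 sheep (the 12 largest and 5 smallest p per direction); 0 met this, so the genes named are members of the lists or were chosen after their values were seen. The members and lists were chosen with earlier results of these data known. GAD1 and 7 other list symbols were not analysed here, and 14 were removed as low. Some genes are not reported here.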

Additional observations from a re-analysis of the deposited data

Results flagged for a closer look

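Of 87 groups of 5 visual cortex or motor cortex values examined, 6 had 1 sample far from the others, where a gap above 0.71 of the group's whole range counted as far; chance alone flags about 1 in 20. Sheep 694 stood apart in the MBP level of visual cortex, at 9089 CPM where the other 4 sheep had 1038 to 2708, and in the mean log2 CPM of the myelin list, at 8.849 against 6.433 to 6.908. Sheep 687 stood apart in the CRYM level of visual cortex, at 60.38 CPM against 25.96 to 28.98. It was also apart in 3 list levels, as mean log2 CPM: the claustrum and subplate list at 4.372 against 3.73 to 3.879, the primate association cortex list at 6.658 against 5.662 to 5.767, and the monoamine and acetylcholine receptor list at 2.017 against 1.844 to 1.879.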

How the results depend on the processing

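The count of genes called between visual cortex and the other 4 regions was 0, and it stayed 0 with RLE and upper quartile factors, voom, no low-count filter, each comparator region left out, the myelin covariate and a fold threshold. DESeq2 called 33 of 27994 genes there, 3 of them among 442 list genes and 3 that met the rule for named genes. The list genes were EPHA6, CHRNA7 and CHRNA2, and CHRNA2 averaged 0.0624 CPM with counts in 7 libraries. The DESeq2 calls were 32, 140, 23 and 38 against frontal, motor, prefrontal and posterior parietal cortex. Most of those against frontal, prefrontal and posterior parietal cortex averaged below 0.05 CPM. Of the 33, 7 were in the edgeR test. Voom called 1 gene against frontal (LIN28B) and 2 against motor cortex. Leaving out the library labelled motor cortex of sheep 687, alone or with that of sheep 699, gave 1 called gene (LOC121819680). Leaving out each sheep in turn gave 0 called genes in every comparison, with 285 to 753 below an unadjusted p of 0.05 for visual cortex against the rest. In the paired design the animal is a block; with no replicate block 0 genes were called and 274 were below an unadjusted p of 0.05, against 480 with it. All 42 genes followed kept their direction in all 18 alternatives, and 5 of them were called in at least 1. The cause of the differences between tools was not tested. With 5 animals, a median standard error of 0.14 on the log2 scale and larger errors for scarce genes, differences that are small beside that error were not detectable.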
